A study of Mus musculus with 11 samples.

Results

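The tumour suppressor p53, encoded by Trp53, and 31 of its regulators and target genes were examined in mouse neuroblastomas. These 32 genes were given as a list of symbols, and all 32 were found among the 24411 rows of the deposited expression table. All 32 also passed the filter for testing, a level of 1 TPM (transcripts per 1000000) or more in 2 or more libraries, as did 15497 genes in all. RNA came from spontaneous tumours of about 5 mm in homozygous Th-MYCN+/+ mice, in which the tyrosine hydroxylase promoter drives a MYCN transgene in sympathoadrenal cells, and every group carried this transgene. Tumours were taken 16 h after a single treatment. The combination group (n = 3 mice) received CBL0137 at 40 mg/kg intravenously and panobinostat at 5 mg/kg intraperitoneally, the CBL0137 group (n = 3) and the panobinostat group (n = 2, replicates 1 and 3) received 1 of these drugs at the same dose, and the vehicle group (n = 3) received neither. CBL0137 is a curaxin, a DNA-binding compound known to trap the histone chaperone FACT on chromatin and to activate p53 without breaking DNA. Panobinostat inhibits histone deacetylases.

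p53 is a transcription factor that is made and destroyed continuously in unstressed cells. Mdm2 marks it for degradation, Mdm4 binds and silences its activation domain, and Ppm1d removes its activating phosphates. Since Mdm2, Ppm1d and Ccng1 are also p53 targets, they form feedback loops. Stress frees p53, which then turns on genes that halt the cell cycle, repair DNA, adjust metabolism or kill the cell. Most human neuroblastomas keep an intact p53 gene at diagnosis, and its control by Mdm2 is a long-standing subject in this tumour.

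p53 binds DNA as a tetramer, through pairs of half-sites, each a stretch of 10 bases. Promoter sequences of 24 of the 32 genes were matched by symbol in RefSeq (GRCm38.p6), each covering 250 bases before to 50 bases after a transcript start. A match to the published p53 half-site consensus was found for 9 of these 24 genes (37.5%), against 2582 of all 27025 genes with promoter sequences (9.55%). A gene was counted if any of its transcript starts had a match, so genes with more starts had more chances. The windows of Polk and Sesn1 belong to transcript starts inside the gene. The consensus reads the same on both strands, so 1 search covers both. A match is a string of letters and not a measured binding site. The 9 windows are shown because they place the match in the promoters of p53 itself, of 3 feedback genes and of 5 effectors whose values follow, with the half-site in capitals and 10 bases on each side.
Trp53, chr11:69580274-69580303, + strand: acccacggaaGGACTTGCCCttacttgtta
Mdm2, chr10:117710925-117710954, - strand: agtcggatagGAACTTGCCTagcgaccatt
Ppm1d, chr11:85311112-85311141, + strand: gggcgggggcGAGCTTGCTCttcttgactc
Ccng1, chr11:40755452-40755481, - strand: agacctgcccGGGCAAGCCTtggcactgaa
Polk, chr13:96519399-96519428, - strand: catgtagcttGAACTAGCCTcaaacttatt
Gadd45a, chr6:67037428-67037457, - strand: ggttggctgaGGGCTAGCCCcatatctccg
Aen, chr7:78895927-78895956, + strand: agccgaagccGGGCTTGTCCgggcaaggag
Ei24, chr9:36797325-36797354, - strand: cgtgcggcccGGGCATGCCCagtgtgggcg
Sesn1, chr10:41887256-41887285, + strand: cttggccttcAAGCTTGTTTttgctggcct
Of these 9 genes, 5 were later called higher after the combination (Mdm2, Ccng1, Polk, Gadd45a and Sesn1), 3 were called lower (Trp53, Ppm1d and Aen) and Ei24 was not called. Of all 32 genes 21 were called higher and 5 lower, and of all tested genes 35.9% and 30.1%.

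The 11 libraries each had 12856 to 14747 genes at 1 TPM or more. TPM are shares of a fixed total, so read depth is unknown and no counting interval can be given. Markers of normal cells in the tumour moved with the treatments. The summed level of 16 macrophage and monocyte markers was 8303 to 11948 TPM after the combination, 2031 to 4102 TPM after CBL0137, 5004 to 6355 TPM after panobinostat and 921 to 1155 TPM in vehicle tumours. The sum of 12 fibroblast and pericyte markers was 4521 to 5677, 698 to 1628, 3232 to 3750 and 311 to 503 TPM in the same groups, and that of 10 endothelial markers was 525 to 1008, 111 to 274, 280 to 318 and 52.2 to 81.9 TPM. All members of these 3 lists were called higher after the combination and after panobinostat, and 11 of 16, 2 of 12 and 3 of 10 were called higher after CBL0137. Of 7 tested Schwann cell markers, 5 were called higher after the combination, none after CBL0137 and 7 after panobinostat, and of 8 T cell markers 4, none and 1 were. The sum of 10 neuroblast markers was 587 to 1101, 1455 to 1612, 863 to 1088 and 989 to 1200 TPM. After the combination 6 of the 10 fell and 2 rose, after CBL0137 none fell and 2 rose, and after panobinostat 1 fell and none rose. Of all tested genes, 35.9% rose and 30.1% fell after the combination, 4.99% and 1.13% after CBL0137, and 25.5% and 16.9% after panobinostat. None of the markers in these 4 lists was at 0 in every library of a group. In bulk tissue, fewer cells of a type and less RNA per cell cannot be told apart. How far the change in cell markers enters the values of the p53 genes was not tested. At least 6 libraries also carried transcripts of another tissue or of B cells. The highest sums of adrenal cortex and skeletal muscle markers were in combination replicate 2 (5242 TPM) and panobinostat replicate 3 (8409 TPM). Those of kidney and B cell markers were in vehicle replicate 2 (422 TPM) and CBL0137 replicate 3 (160 TPM). For the 32 genes, counts without these 4 libraries set apart follow where neither group compared is a single tumour. Without them panobinostat is one. That fit keeps fewer libraries in every group, so a call can be lost with little change in its value. Combination replicate 1 and CBL0137 replicate 2 had 649 and 534 TPM of skeletal muscle markers, and those 4-library counts still hold both. Without combination replicate 1 alone, 23 of the 32 genes were called after the combination, against 26 with all libraries. The shares of all genes were 61.2% and 66%. Without CBL0137 replicate 2 alone, 3 of the 32 were called after CBL0137, against 2 with all libraries. There the shares were 5.18% and 6.12%.

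Each group was set against vehicle to ask what CBL0137, panobinostat and both together did to this pathway. After the combination 21 of the 32 genes rose and 5 fell (limma on log2(TPM + 1), Benjamini-Hochberg adjusted p under 0.05 over all 15497 genes). Of all tested genes 35.9% rose and 30.1% fell in the same comparison, so a change in itself was common. The median change of the 32 genes was 0.83 (log2), against 0.08 over all tested genes. The 32 genes were chosen with earlier results of these data known, so their difference from all genes is a description and not a test. Without the 4 libraries set apart, 16 rose and 4 fell, where 60.2% of all genes were called, against 66% with all libraries. After panobinostat 13 of the 32 rose and 3 fell, where 25.5% of all genes rose and 16.9% fell, and the medians were 0.43 and 0.10. The split was 12 and 5 with median-ratio scaling, where 45.3% of all genes were called, against 42.4% without it. Without the 4 libraries the panobinostat group is a single tumour, whose spread cannot be measured. After CBL0137 only Gdf15 and Ptp4a3 rose and none fell, where 4.99% of all genes rose and 1.13% fell, and the medians were 0.20 and -0.01. The CBL0137 count was 5 with a pseudocount of 0.1 (8.55% of all genes) and 4 with median-ratio scaling (6.32%). It was 0 without vehicle replicate 3 (2.09% of all genes) or without the 4 libraries (2.28%). It was 1 without CBL0137 replicate 3 (3.45%) or vehicle replicate 1 (2.88%). At an unadjusted p under 0.05, 9 of the 32 genes (28.1%) passed after CBL0137, against 24.5% of all genes. Groups that did not overlap vehicle were also common. All combination tumours lay above all vehicle tumours for 22 of the 32 genes and below them for 5, where 70.8% of all genes did not overlap. The counts were 10 and 4 after CBL0137 (37.7% of all genes) and 17 and 7 after panobinostat (64.8%).

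**Figure D1:**
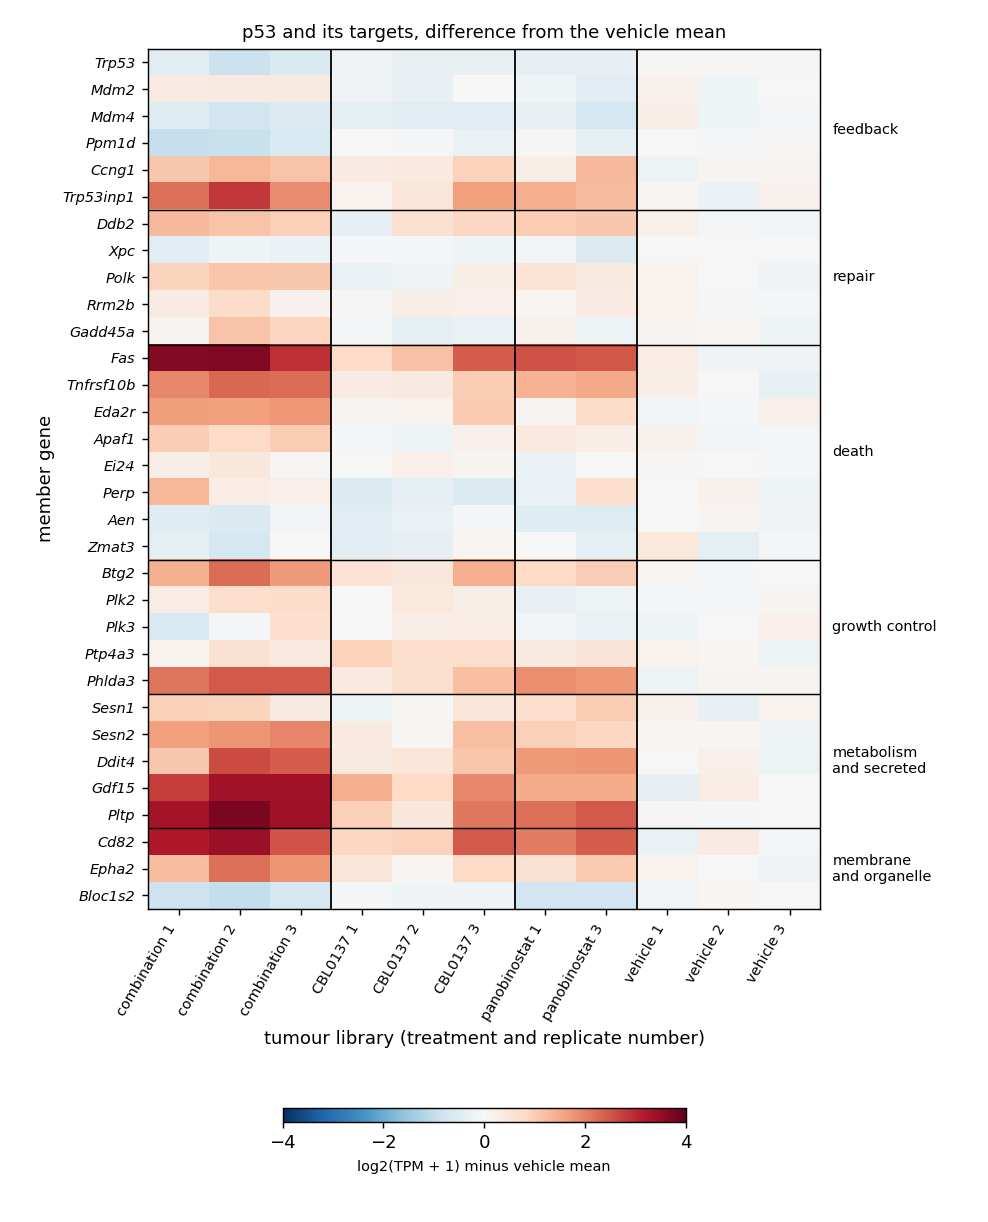
Heat map of the 32 genes (rows, by role) in the 11 tumour libraries (columns), coloured by log2(TPM + 1) minus the vehicle mean, red for higher and blue for lower. Fas, Gdf15, Pltp and Cd82 are the darkest red rows in the combination columns, while Trp53, Mdm4, Ppm1d and Bloc1s2 are blue there, and CBL0137 replicate 3 is redder than the other 2 CBL0137 libraries in many rows.

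After the combination the p53 gene itself and its negative regulators Mdm4 and Ppm1d fell, while Mdm2 was higher. Trp53 had 33.4, 24.8 and 30.1 TPM after the combination, 41.9, 36.8 and 37.3 TPM after CBL0137, 36.5 and 36.4 TPM after panobinostat, and 47.5, 47.0 and 43.2 TPM in vehicle tumours. All 8 treated tumours lay below all vehicle tumours, and the 3 combination tumours lay below every other library. The fall was called after the combination (log2 change -0.63 ± 0.12 SE, adjusted p = 0.000791), while the values were -0.24 after CBL0137 (adjusted p = 0.232) and -0.32 after panobinostat (adjusted p = 0.0676). Mdm4 was likewise lowest after the combination, with 45.9, 38.0 and 44.5 TPM, against 50.2, 48.3 and 48.6 TPM after CBL0137, 52.6 and 39.7 TPM after panobinostat, and 77.5, 57.0 and 61.6 TPM in vehicle tumours. No treated tumour reached the lowest vehicle value. Mdm4 fell after the combination (-0.59 ± 0.14, adjusted p = 0.00388) and after panobinostat (-0.49 ± 0.16, adjusted p = 0.0292). Ppm1d, the phosphatase that switches p53 signalling off, had 12.2, 12.3 and 15.4 TPM after the combination, 23.9, 23.0 and 19.6 TPM after CBL0137, 24.5 and 18.1 TPM after panobinostat, and 24.3, 23.1 and 24.5 TPM in vehicle tumours. Only the combination tumours were set apart, and their fall was called (-0.81 ± 0.14, adjusted p = 0.00065).

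Mdm2, the ubiquitin ligase that p53 induces against itself, behaved differently. It had 57.4, 58.9 and 59.8 TPM after the combination, 41.2, 37.1 and 46.9 TPM after CBL0137, 40.7 and 34.1 TPM after panobinostat, and 51.7, 40.7 and 46.1 TPM in vehicle tumours. The combination tumours lay above every other library, and tumours given 1 drug overlapped the vehicle range or lay below it. The rise over vehicle was 0.35 ± 0.12 (adjusted p = 0.0273). This call was lost without any one of the 3 combination libraries or without vehicle replicate 2 or 3 (adjusted p up to 0.105). It was also lost without the 4 libraries set apart, where the value was 0.26. Mdm2 values against vehicle were -0.14 after CBL0137 (adjusted p = 0.505) and -0.30 after panobinostat (adjusted p = 0.104).

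The other 2 feedback genes rose. Trp53inp1, a stress protein that promotes p53 activation and autophagy, had 34.0, 53.7 and 27.7 TPM after the combination, 7.5, 9.66 and 22.8 TPM after CBL0137, 19.8 and 17.2 TPM after panobinostat, and 7.11, 5.49 and 7.54 TPM in vehicle tumours. The combination and panobinostat tumours all lay above vehicle, and CBL0137 replicate 3 stood above its group. The log2 change was 2.31 ± 0.36 after the combination (adjusted p = 0.000274) and 1.34 ± 0.40 after panobinostat (adjusted p = 0.0219). Ccng1, a cyclin that recruits a phosphatase to Mdm2, had 156, 188 and 166 TPM after the combination, 93.5, 97.8 and 140 TPM after CBL0137, 89.0 and 184 TPM after panobinostat, and 64.6, 79.3 and 79.6 TPM in vehicle tumours. The 2 panobinostat tumours differed by more than any other group did. The 184 TPM was in panobinostat replicate 3, the library with 8409 TPM of skeletal muscle markers. Ccng1 rose after the combination (1.18 ± 0.24, adjusted p = 0.00172) and after panobinostat (0.78 ± 0.27, adjusted p = 0.0426). The panobinostat call was kept in 3 of the 11 fits that each left out 1 library. Its value was 0.26 without panobinostat replicate 3, which leaves a single tumour. The part of the muscle transcripts was not tested.

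**Figure D2:**
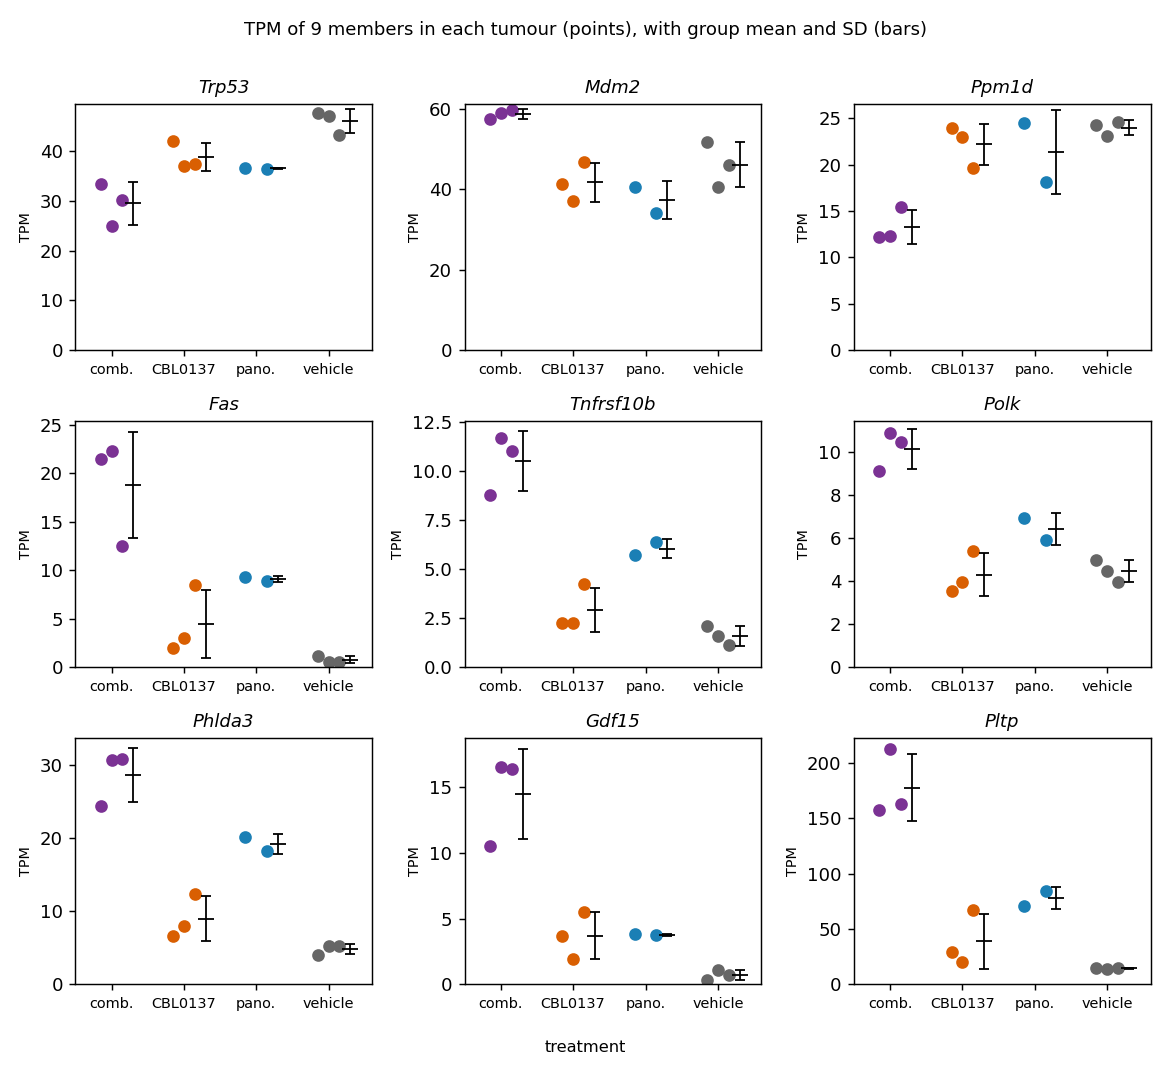
TPM (linear axes from 0) of 9 of the genes, with a point for each tumour library and a bar at the group mean, groups ordered combination, CBL0137, panobinostat and vehicle. Trp53 and Ppm1d are lowest in the combination tumours, whereas Mdm2 and the effector genes are highest there.

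Genes of death signalling at the cell surface showed some of the widest changes. Fas, the receptor for Fas ligand, had 21.5, 22.4 and 12.5 TPM after the combination, 2, 2.99 and 8.53 TPM after CBL0137, 9.33 and 8.88 TPM after panobinostat, and 1.2, 0.61 and 0.6 TPM in vehicle tumours. No treated group overlapped vehicle, and the combination tumours lay above all others. Fas rose after the combination (3.43 ± 0.39, adjusted p = 4.32e-05) and panobinostat (2.50 ± 0.44, adjusted p = 0.0019), and the value after CBL0137 was 1.44 ± 0.39 (adjusted p = 0.0577). Tnfrsf10b, the mouse TRAIL receptor, had 8.77, 11.7 and 11.03 TPM after the combination, 2.27, 2.28 and 4.22 TPM after CBL0137, 5.71 and 6.38 TPM after panobinostat, and 2.11, 1.6 and 1.12 TPM in vehicle tumours. Its order was combination, panobinostat, CBL0137, vehicle with no overlap between any 2 groups. Tnfrsf10b rose after the combination (2.15 ± 0.23, adjusted p = 3.17e-05) and panobinostat (1.45 ± 0.26, adjusted p = 0.0021), with 0.57 after CBL0137 (adjusted p = 0.167). Eda2r, a receptor for ectodysplasin, had 11.6, 11.2 and 12.1 TPM after the combination, 3.27, 3.35 and 7.17 TPM after CBL0137, 3.29 and 5.65 TPM after panobinostat, and 2.66, 2.75 and 3.51 TPM in vehicle tumours. Only the combination set it clear of vehicle (1.67 ± 0.27, adjusted p = 0.000327), and both single-drug values were 0.43 (adjusted p = 0.352 after CBL0137 and 0.266 after panobinostat).

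Inside the cell, the death genes were less uniform. Apaf1, the scaffold on which caspases are activated, had 23.3, 19.9 and 23.8 TPM after the combination, 10.5, 9.71 and 13.2 TPM after CBL0137, 14.95 and 13.9 TPM after panobinostat, and 13.0, 10.3 and 10.8 TPM in vehicle tumours. The combination tumours lay above the rest, and Apaf1 rose by 0.92 ± 0.15 (adjusted p = 0.00032). Aen, a nuclease that digests DNA in dying cells, fell after the combination (-0.39 ± 0.14, adjusted p = 0.0306) and after panobinostat (-0.50 ± 0.16, adjusted p = 0.0286). Its levels were 30.5 to 42.4 TPM after the combination, 34.1 to 43.8 TPM after CBL0137, 31.8 to 32.6 TPM after panobinostat and 41.7 to 49.5 TPM in vehicle tumours, and only panobinostat did not overlap vehicle. The Aen call after the combination was lost without combination replicate 1 or 2 or vehicle replicate 1 or 2 (adjusted p up to 0.101). It was also lost without the 4 libraries set apart, where the value was -0.25. The panobinostat value of Aen was then -0.43, from a single tumour. The 3 death genes that were called against vehicle in no group were Ei24, an endoplasmic reticulum protein (0.25 after the combination, adjusted p = 0.0909), Perp, a membrane protein of cell junctions (0.61, adjusted p = 0.136), and Zmat3, an RNA-binding zinc finger protein (-0.36, adjusted p = 0.227). Over all 11 tumours Ei24 ran between 36.1 and 60.1 TPM and Zmat3 between 10.2 and 23.4 TPM. Perp was low throughout, at 1.2 to 3.87 TPM after the combination, 0.32 to 0.49 TPM after CBL0137, 0.61 and 2.12 TPM after panobinostat and 0.71 to 1.16 TPM in vehicle tumours.

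Of the 5 DNA repair genes, 3 rose after the combination and none fell. Polk, a polymerase that copies past damaged bases, had 9.09, 10.9 and 10.5 TPM after the combination, 3.53, 3.96 and 5.42 TPM after CBL0137, 6.94 and 5.91 TPM after panobinostat, and 4.97, 4.46 and 3.94 TPM in vehicle tumours. The combination tumours lay above all others, and the CBL0137 tumours spanned the vehicle range. Polk rose by 1.03 ± 0.17 after the combination (adjusted p = 0.000453). Ddb2, which recognises ultraviolet lesions, was low, with 5.08, 4.45 and 3.78 TPM after the combination, 0.98, 2.75 and 3.4 TPM after CBL0137, 3.99 and 4.19 TPM after panobinostat, and 1.85, 1.34 and 1.3 TPM in vehicle tumours. The combination and panobinostat tumours shared a range above vehicle. Ddb2 rose after the combination (1.12 ± 0.28, adjusted p = 0.00489) and panobinostat (1.03 ± 0.31, adjusted p = 0.023). Gadd45a, a growth arrest and repair protein, had 13.4, 28.6 and 23.2 TPM after the combination, 12.0, 9.13 and 10.04 TPM after CBL0137, 14.1 and 10.6 TPM after panobinostat, and 13.5, 13.0 and 10.9 TPM in vehicle tumours. Combination replicate 1 lay within the vehicle range and the other 2 above it. The call of its rise of 0.70 ± 0.25 (adjusted p = 0.0286) was lost without combination replicate 2 or 3 or vehicle replicate 2 or 3 (adjusted p up to 0.109). It was also lost without the 4 libraries set apart, where the value was 0.51. Xpc, a partner of Ddb2 in lesion recognition, had -0.30 (adjusted p = 0.0808) and Rrm2b, the p53-inducible subunit of ribonucleotide reductase, had 0.41 (adjusted p = 0.0509), neither being called. Over all 11 tumours Xpc ran between 11.6 and 17.7 TPM and Rrm2b between 7.6 and 14.1 TPM.

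Of the 5 genes of growth control, 4 rose after the combination. Phlda3, which blocks Akt at the membrane, had 24.5, 30.7 and 30.9 TPM after the combination, 6.66, 8.01 and 12.4 TPM after CBL0137, 20.2 and 18.3 TPM after panobinostat, and 4.03, 5.26 and 5.27 TPM in vehicle tumours. The 4 groups did not overlap. Phlda3 rose after the combination (2.34 ± 0.21, adjusted p = 1.32e-05) and panobinostat (1.80 ± 0.23, adjusted p = 0.000649), with 0.74 after CBL0137 (adjusted p = 0.0633). Btg2, an antiproliferative protein of messenger RNA decay, had 29, 52.5 and 35.3 TPM after the combination, 15.8, 14.5 and 30.03 TPM after CBL0137, 18.5 and 21.4 TPM after panobinostat, and 10.8, 9.94 and 10.1 TPM in vehicle tumours. Every treated tumour lay above every vehicle tumour. Btg2 rose after the combination (1.78 ± 0.27, adjusted p = 0.000245) and panobinostat (0.89 ± 0.30, adjusted p = 0.0374), and CBL0137 gave 0.83 (adjusted p = 0.0963). Plk2 and Plk3 are stress-responsive polo-like kinases, and they differed. Plk2 had 52.8, 70.1 and 71.5 TPM after the combination, 42.1, 57.1 and 49.6 TPM after CBL0137, 34.7 and 36.4 TPM after panobinostat, and 41.2, 40.3 and 45.9 TPM in vehicle tumours. It rose after the combination (0.59 ± 0.14, adjusted p = 0.00442), whereas both panobinostat tumours lay below vehicle (-0.25, not called). The Plk2 call was lost without the 4 libraries set apart, where the value was 0.49. Plk3 had -0.01 after the combination (adjusted p = 0.977), and its values after the combination, 8.28, 12.5 and 21.4 TPM, spanned those of all other tumours.

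Ptp4a3, a tyrosine phosphatase linked to growth and spread, was the growth gene called after CBL0137. It had 23.4, 33.0 and 28.4 TPM after the combination, 40.9, 35.2 and 35.5 TPM after CBL0137, 27.5 and 30.5 TPM after panobinostat, and 23.4, 22.3 and 18.4 TPM in vehicle tumours. The CBL0137 tumours lay above every other library. Ptp4a3 rose after CBL0137 (0.78 ± 0.14, adjusted p = 0.0135) and, by less, after the combination (0.38 ± 0.14, adjusted p = 0.0375). The CBL0137 call was lost without vehicle replicate 3 (adjusted p = 0.0673) and without the 4 libraries set apart, where the value was 0.84. The combination call was lost without CBL0137 replicate 2, combination replicate 2 or 3, or vehicle replicate 2 or 3 (adjusted p up to 0.146). It was also lost without those 4 libraries, where the value was 0.30.

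All 5 metabolic and secreted genes passed as higher after the combination and after panobinostat in the fit of all libraries, the calls of Sesn1 and the panobinostat call of Sesn2 being lost under other settings given with them. Gdf15, a stress cytokine that acts on the brainstem to reduce feeding, had 10.5, 16.5 and 16.3 TPM after the combination, 3.68, 1.94 and 5.47 TPM after CBL0137, 3.8 and 3.72 TPM after panobinostat, and 0.35, 1.1 and 0.73 TPM in vehicle tumours. The combination tumours lay above all others, and the CBL0137 range held both panobinostat values. Gdf15 rose after the combination (3.16 ± 0.30, adjusted p = 1.81e-05), CBL0137 (1.39 ± 0.30, adjusted p = 0.0262) and panobinostat (1.49 ± 0.34, adjusted p = 0.00637). It was the only one of the 32 called against vehicle in all 3 treated groups. Its CBL0137 call was lost without CBL0137 replicate 1 or 3 or vehicle replicate 1 or 3 (adjusted p up to 0.0946). That call was also lost without the 4 libraries set apart, where the value was 1.28. Pltp, which transfers phospholipids between lipoproteins, had 158, 213 and 163 TPM after the combination, 29.6, 20.6 and 67.5 TPM after CBL0137, 70.7 and 84.9 TPM after panobinostat, and 15.1, 14.2 and 14.9 TPM in vehicle tumours. No treated group overlapped vehicle, and CBL0137 replicate 3 was near the panobinostat values. Pltp rose after the combination (3.50 ± 0.34, adjusted p = 1.87e-05) and panobinostat (2.32 ± 0.38, adjusted p = 0.0014), with 1.18 ± 0.34 after CBL0137 (adjusted p = 0.0673).

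Ddit4, an inhibitor of mTOR signalling, had 21.3, 63.8 and 56.4 TPM after the combination, 12.6, 13.8 and 22.3 TPM after CBL0137, 33.5 and 35.4 TPM after panobinostat, and 9.51, 11.4 and 8.3 TPM in vehicle tumours. Combination replicate 1 lay below both panobinostat tumours. Ddit4 rose after the combination (2.03 ± 0.36, adjusted p = 0.00068) and panobinostat (1.73 ± 0.41, adjusted p = 0.00735). The sestrins are stress proteins that restrain mTOR. Sesn2 had 7.01, 7.72 and 8.9 TPM after the combination, 2.35, 1.66 and 4.84 TPM after CBL0137, 3.92 and 3.58 TPM after panobinostat, and 1.72, 1.7 and 1.27 TPM in vehicle tumours. It rose after the combination (1.79 ± 0.26, adjusted p = 0.000206) and after panobinostat (0.89 ± 0.30, adjusted p = 0.034), the panobinostat value being -0.03 after quantile normalization, and its call was lost without either panobinostat library or any one vehicle library (adjusted p up to 0.123). Sesn1 had its highest mean after panobinostat, with 38.9, 37.0 and 25.4 TPM after the combination, 17.0, 20.3 and 27.6 TPM after CBL0137, 32.5 and 40.4 TPM after panobinostat, and 22.1, 15.6 and 21.5 TPM in vehicle tumours. Its combination and panobinostat values overlapped, both above vehicle. Sesn1 rose after the combination (0.74 ± 0.22, adjusted p = 0.0135) and panobinostat (0.86 ± 0.25, adjusted p = 0.0189). The combination call was lost without combination replicate 1 or vehicle replicate 2 (adjusted p up to 0.0553), and the panobinostat call without panobinostat replicate 3 or vehicle replicate 2 (adjusted p up to 0.129). Without the 4 libraries set apart the combination call was also lost (0.51, adjusted p = 0.0841). The panobinostat value was then 0.55, from a single tumour.

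The last 3 genes act at membranes. Cd82, a tetraspanin known as a metastasis suppressor, had 30.4, 36.3 and 18.4 TPM after the combination, 5.04, 5.45 and 17.6 TPM after CBL0137, 13.2 and 17.2 TPM after panobinostat, and 1.81, 3.24 and 2.31 TPM in vehicle tumours. All treated tumours lay above vehicle, and CBL0137 replicate 3 was about level with panobinostat replicate 3. Cd82 rose after the combination (3.06 ± 0.41, adjusted p = 0.000118) and panobinostat (2.24 ± 0.46, adjusted p = 0.00413), with 1.40 ± 0.41 after CBL0137 (adjusted p = 0.0743). Epha2, an ephrin receptor, was low, with 3.09, 7.07 and 4.87 TPM after the combination, 1.45, 0.85 and 2.04 TPM after CBL0137, 1.62 and 2.55 TPM after panobinostat, and 0.93, 0.72 and 0.57 TPM in vehicle tumours. The combination tumours lay above all others. Epha2 rose after the combination (1.74 ± 0.28, adjusted p = 0.000381), with 0.81 after panobinostat (adjusted p = 0.062). Bloc1s2, a subunit of complexes that position lysosomes and related organelles, went the other way. It had 45.2, 41.3 and 50.4 TPM after the combination, 78.1, 72.2 and 72.2 TPM after CBL0137, 47.5 and 47.3 TPM after panobinostat, and 75.4, 84.7 and 82.1 TPM in vehicle tumours. The groups given panobinostat, alone or combined, shared a range well below the other 2 groups. Bloc1s2 fell after the combination (-0.81 ± 0.09, adjusted p = 4.69e-05) and panobinostat (-0.76 ± 0.10, adjusted p = 0.000811), with -0.12 after CBL0137.

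**Figure D3:**
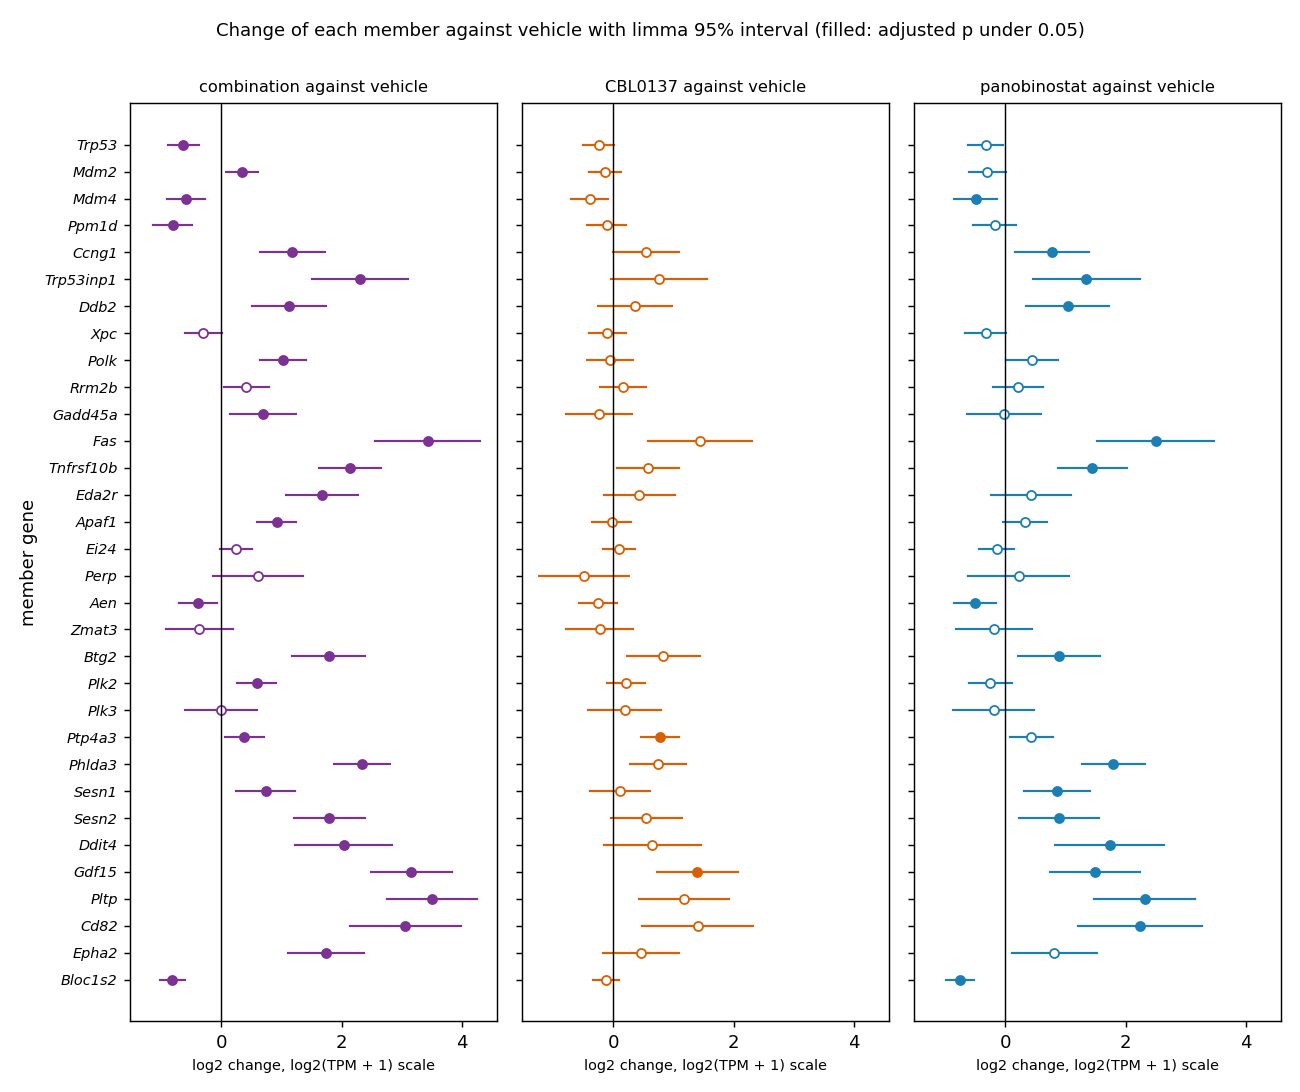
Log2 change against vehicle, with its 95% interval, of the 32 genes (rows) after the combination, CBL0137 and panobinostat; filled points passed adjusted p under 0.05. All 3 treatments share the same 3 vehicle tumours, and 26, 2 and 16 points are filled after the combination, CBL0137 and panobinostat.

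Of the 16 panobinostat calls, 8 were kept when any one of the 11 libraries was left out, namely Fas, Tnfrsf10b, Phlda3, Ddit4, Gdf15, Pltp, Cd82 and Bloc1s2. Mdm4, Ccng1, Trp53inp1, Ddb2, Aen, Btg2, Sesn1 and Sesn2 each lost the call in at least 1 such fit, with adjusted p up to 0.425 for Ccng1 and 0.246 for the others. The libraries concerned were panobinostat replicates 1 and 3 and the 3 vehicle libraries, and for Ccng1 also CBL0137 replicates 1 and 2 and combination replicates 1 and 3. Mdm4, Ccng1, Ddb2, Aen and Sesn1 were the panobinostat calls lost without the 4 libraries set apart. Without panobinostat replicate 3 the panobinostat group is a single tumour, assumed to vary like the others, and 8 of the 32 genes were called, where 26% of all genes were. Without vehicle replicate 2, 9 were called, where 36% of all genes were. Of the 26 combination calls, 21 were kept in all 11 fits, the other 5 being Mdm2, Gadd45a, Aen, Ptp4a3 and Sesn1.

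The combination was next set against each single drug, to ask what the second drug added. Against CBL0137, 21 of the 32 genes were higher after the combination and 4 were lower, where 33.2% of all genes were higher and 23.7% lower, and the medians were 0.85 and 0.12. Without the 4 libraries set apart the counts were 18 and 3, where 52.6% of all genes were called, against 56.9% with all libraries. The 21 comprised all 5 metabolic and secreted genes, 5 of 8 death genes, 3 of 5 repair genes, 3 of 5 growth genes, 3 of 6 feedback genes, and Cd82 and Epha2. The widest was Pltp (2.32 ± 0.34, adjusted p = 0.000468), followed by Fas (1.98 ± 0.39, adjusted p = 0.00194) and Gdf15 (1.76 ± 0.30, adjusted p = 0.000965). Perp, called in no comparison with vehicle, was higher after the combination than after CBL0137 (1.09 ± 0.34, adjusted p = 0.0187), a call lost without CBL0137 replicate 1 or combination replicate 1 (adjusted p up to 0.0616). The 4 lower genes were Ppm1d (-0.70 ± 0.14, adjusted p = 0.00244), Bloc1s2 (-0.69 ± 0.09, adjusted p = 0.000373), Ptp4a3 (-0.39 ± 0.14, adjusted p = 0.0386) and Trp53 (-0.39 ± 0.12, adjusted p = 0.0153). Of the 25 calls, 17 held whichever library was left out. Trp53, Ccng1, Ddb2, Perp, Btg2, Plk2, Ptp4a3 and Sesn1 did not (adjusted p up to 0.172). Each was lost without CBL0137 replicate 1, Trp53 only there and the others also without further libraries.

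Against panobinostat, 5 of the 32 genes were higher after the combination and 1 was lower, where 6.24% of all genes were higher and 4.3% lower, and the medians were 0.47 and -0.02. The higher genes were Gdf15 (1.67 ± 0.34, adjusted p = 0.0199), Eda2r (1.24 ± 0.30, adjusted p = 0.0343), Plk2 (0.84 ± 0.16, adjusted p = 0.0159), Mdm2 (0.64 ± 0.14, adjusted p = 0.0229) and Apaf1 (0.59 ± 0.16, adjusted p = 0.0476). Ppm1d was lower (-0.63 ± 0.16, adjusted p = 0.0383). None of these 6 calls held whichever library was left out. The count was 11 without CBL0137 replicate 3, where 16.9% of all genes were called, against 10.5% with all libraries. It was 3 without combination replicate 1 (3.39% of all genes) or without any one vehicle library (4.14% to 6.25%), and 1 without combination replicate 2 (3.14%). With either panobinostat library left out, or the 4 libraries set apart left out, a single panobinostat tumour remains, and its spread cannot be measured.

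The single drugs were also set directly against each other. CBL0137 gave 1 of the 32 genes a higher and 2 a lower level than panobinostat, where 6.81% of all genes were higher and 12.1% lower, and the medians were -0.16 and -0.11. Bloc1s2 was higher after CBL0137 (0.63 ± 0.10, adjusted p = 0.00987). Phlda3 (-1.05 ± 0.23, adjusted p = 0.0176) and Tnfrsf10b (-0.88 ± 0.26, adjusted p = 0.0415) were lower. With median-ratio scaling the split was 2 higher and 2 lower, where 20.2% of all genes were called. Without CBL0137 replicate 3, 1 of the 32 genes was higher and 10 were lower. In that fit 25.9% of all genes were called, against 18.9% with all libraries. The count was 1 without CBL0137 replicate 1 (3.48% of all genes) or CBL0137 replicate 2 (4.67%). Without either panobinostat library, or without the 4 libraries set apart, the panobinostat group is a single tumour, whose spread cannot be measured. The drugs' effects on Fas (-1.06 for CBL0137 against panobinostat, adjusted p = 0.113) or Pltp (-1.14, adjusted p = 0.0588) were not shown to differ in the fit of all libraries. Without the 4 libraries set apart the values were -1.58 for Fas and -1.48 for Pltp.

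The interaction subtracts both single-drug changes from the combination change, and asks whether the drugs together did something other than add up on the log2 scale. None of the 32 genes was called, nor was any other gene (0% of all 15497 genes). At an unadjusted p under 0.05, 7 of the 32 genes (21.9%) passed, against 10.5% of all genes. Mdm2 had the lowest p of the 32, where the single changes summed to -0.44 and the combination gave 0.35 (interaction 0.79 ± 0.18, 95% interval 0.38 to 1.19, adjusted p = 0.347). Ptp4a3 lay on the other side, with an interaction of -0.82 ± 0.22 (95% interval -1.31 to -0.34, adjusted p = 0.347). The other 5 were Plk2, Apaf1, Gadd45a and Polk with positive values between 0.62 and 0.96, and Ppm1d with -0.52. Of the 4 genes with the widest combination changes, the combination gave 3.50 for Pltp, where the single changes summed to 3.50, and 3.16 for Gdf15, where they summed to 2.88. It gave 3.43 for Fas, where they summed to 3.95, and 3.06 for Cd82, where they summed to 3.64. These sums share the vehicle tumours with the combination change.

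**Figure D4:**
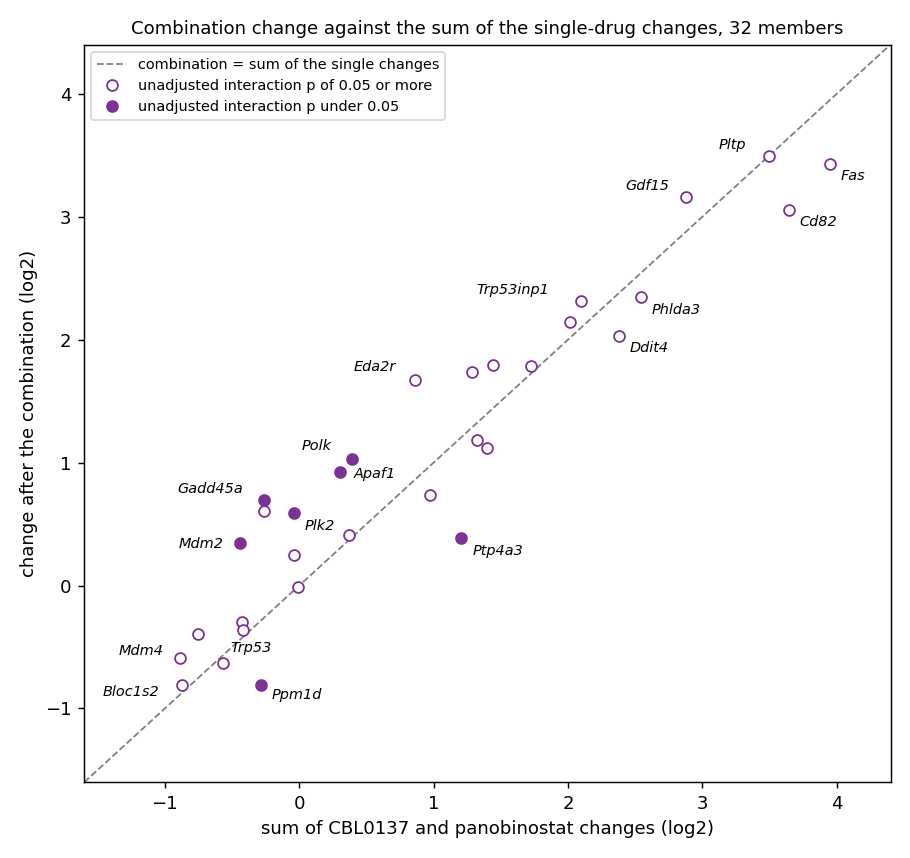
Log2 change after the combination (vertical axis) against the sum of the log2 changes after CBL0137 and panobinostat (horizontal axis) for the 32 genes, with the dashed line where both are equal. Filled points had an unadjusted interaction p under 0.05, with Mdm2, Gadd45a, Plk2, Polk and Apaf1 above the line and Ptp4a3 and Ppm1d below it; no gene passed after adjustment.

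A further 40 p53 targets that are not among the 32 were counted, of which 39 were tested. After the combination 19 rose and 7 fell, after CBL0137 3 rose and 1 fell, and after panobinostat 15 rose and 6 fell. The shares of all genes that rose and fell were 35.9% and 30.1%, 4.99% and 1.13%, and 25.5% and 16.9% in the same comparisons. The list's median changes were 0.55, 0.17 and 0.33, against 0.08, -0.01 and 0.10 over all genes. Without the 4 libraries set apart, 2 of the list were called after CBL0137, where 2.28% of all genes were. Cdkn1a, the inhibitor of cyclin-dependent kinases through which p53 halts the cell cycle, had 48.8, 55.7 and 63.5 TPM after the combination, 15.8, 15.9 and 47.5 TPM after CBL0137, 23.5 and 23.5 TPM after panobinostat, and 6.47, 4.56 and 3.86 TPM in vehicle tumours. No treated group overlapped vehicle. It rose in all 3 comparisons, by 3.27 ± 0.36 after the combination (adjusted p = 3.6e-05), 2.03 ± 0.36 after CBL0137 (adjusted p = 0.0107) and 2.06 ± 0.40 after panobinostat (adjusted p = 0.0032). The CBL0137 call was lost without vehicle replicate 3 (adjusted p = 0.0549). Pmaip1, which encodes the death protein Noxa, had 10.3, 12.6 and 10.4 TPM after the combination, 1.8, 2 and 5.24 TPM after CBL0137, 3.31 and 4.21 TPM after panobinostat, and 0.57, 0.49 and 0.54 TPM in vehicle tumours. It rose by 2.98 ± 0.28 after the combination (adjusted p = 1.7e-05), 1.29 ± 0.28 after CBL0137 (adjusted p = 0.0272, lost without any one vehicle library, adjusted p up to 0.0975, with only the groups compared, adjusted p = 0.0621, and without the 4 libraries set apart, where the value was 0.90 with adjusted p = 0.0838) and 1.63 ± 0.31 after panobinostat (adjusted p = 0.0031). Bax and Bbc3, which encode the death effector Bax and its activator Puma, were called in none of these comparisons. Bax had 101, 116 and 133 TPM after the combination, 137, 122 and 146 TPM after CBL0137, 103 and 107 TPM after panobinostat, and 104, 127 and 107 TPM in vehicle tumours, and the groups overlapped. Tap1, a peptide transporter of antigen presentation that also responds to interferon, had the widest change of this list (5.78 ± 0.44 after the combination, adjusted p = 7.6e-06, and 3.56 ± 0.44 after CBL0137, adjusted p = 0.00157). Fbxw7, a ubiquitin ligase subunit, fell in all 3 (-1.38 ± 0.13 after the combination, adjusted p = 1.5e-05, -0.55 ± 0.13 after CBL0137, adjusted p = 0.0334, and -0.86 ± 0.14 after panobinostat, adjusted p = 0.00148).

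Among 26 upstream regulators and modifiers of p53, 24 were tested. After the combination 2 rose and 15 fell, after panobinostat 2 rose and 9 fell, and after CBL0137 none was called. Of all genes, 30.1% fell after the combination and 16.9% after panobinostat. After CBL0137, 7 of the 24 had an unadjusted p under 0.05, as did 24.5% of all genes. The list's median changes were -0.44, -0.23 and -0.29 after the combination, CBL0137 and panobinostat. Atr, a kinase of the DNA damage checkpoint, had 16.7, 14.9 and 17.9 TPM after the combination, 29.8, 29.8 and 25.6 TPM after CBL0137, 23.4 and 20.3 TPM after panobinostat, and 35.9, 35.4 and 33.3 TPM in vehicle tumours. The 4 groups did not overlap, and the fall was called after the combination (-1.04 ± 0.11, adjusted p = 3.11e-05) and panobinostat (-0.65 ± 0.12, adjusted p = 0.00289). Sirt1, a deacetylase of p53, fell by 0.79 on the log2 scale after the combination (adjusted p = 9.09e-05) and by 0.89 after panobinostat (adjusted p = 0.000649). Twist1, a transcription factor that represses p53 function and is abundant in stromal cells, and Hexim1, an inhibitor of transcription elongation that binds p53, were the 2 that rose (2.52 ± 0.26 with adjusted p = 2.56e-05, and 1.16 ± 0.15 with adjusted p = 0.000112, after the combination).

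A list of 16 cell cycle genes that p53 represses through the DREAM complex was counted last. None rose and 15 fell after the combination, where 30.1% of all genes fell. After panobinostat none rose and 9 fell, where 16.9% of all genes fell. The 9 became 4 with quantile normalization (41.4% of all genes called) and 14 with only the groups compared (44.4%), against 42.4% without these changes. After CBL0137 none was called in the fit of all libraries, and 5 had an unadjusted p under 0.05, as did 24.5% of all genes. Their median change was -2.16, -0.67 and -0.98 after the combination, CBL0137 and panobinostat. Cdc25c, a phosphatase that starts mitosis, had 10.1, 2.86 and 6.42 TPM after the combination, 29.8, 25.6 and 15.6 TPM after CBL0137, 19.4 and 21.7 TPM after panobinostat, and 53.8, 48.9 and 54.4 TPM in vehicle tumours. Every treated tumour lay below every vehicle tumour, and combination replicate 2, the library with adrenal cortex transcripts, was lowest. That library was also the lowest of the combination libraries for every other gene of this list. For Ccnb1 it had 31.5 TPM, against 83.9 and 77.6 TPM in replicates 1 and 3. Its part in the list's median after the combination was not tested. Cdc25c fell after the combination (-2.97 ± 0.34, adjusted p = 4.57e-05) and panobinostat (-1.31 ± 0.38, adjusted p = 0.0202), with -1.16 ± 0.34 after CBL0137 (adjusted p = 0.0739). Macrophage, fibroblast and endothelial markers rose in the same comparisons, and their part in the fall of these proliferation genes was not tested.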

How the data were processed

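RNA of 11 tumours was sequenced from stranded, ribosomal-RNA-depleted libraries, per the labels' protocols. STAR, SAMtools, RSEM and mm10 are named in the submitters' processing notes, with versions and annotation release not given in the sources used here. The authors deposited TPM values for 24411 genes, each library summing to 1000000, so read depth is unknown. The 32 genes, the roles and the other lists were chosen with earlier results of these data known.

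The test took log2(TPM + 1) of the 15497 genes that reached 1 TPM in 2 or more libraries and left out 8914. This scale understates changes of low genes. One limma 3.58.1 model (R 4.3.3; trended eBayes; residual df of 7) fitted the 4 group means over all 11 libraries. The 7 contrasts were 2-sided, with Benjamini-Hochberg adjustment over all tested genes and a threshold of 0.05. Labels give no batch. They state 3 mice per group, and no 2 libraries were identical. All 32 genes are named, and of each further list at most 4 called members with the lowest adjusted p, plus Cdkn1a, Bax, Bbc3 and Pmaip1.

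Alternatives were a pseudocount of 0.1, no filter, a filter of 5 TPM, median-ratio scaling, quantile normalization, a replicate block, only the groups compared, and each library left out in turn. A fit without 4 libraries carrying transcripts of other cells was chosen after seeing the data. Python 3.11.15 with pandas 2.3.3, numpy 2.4.6 and matplotlib 3.10.9 made tables and figures. Panobinostat replicate 2 was not analysed here.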

Additional observations from a re-analysis of the deposited data

How the results depend on the processing

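The counts of called p53 genes after the combination, 26 against vehicle and 25 against CBL0137, stayed within 1.5 times under all alternatives run (21 to 27 and 17 to 24 over the fits without a single library). No p53 gene was called for the interaction under any of them, though up to 45 other genes were (without panobinostat replicate 1). Against vehicle, the CBL0137 count of 2 (6.12% of all genes) became 5 with a pseudocount of 0.1 (8.55%) and 4 with median-ratio scaling (6.32%). It was 1 with quantile normalization (4.62%) or only the groups compared (5.23%), and 0 without the 4 libraries set apart (2.28%). It ranged from 0 to 3 without single libraries. The panobinostat count of 16 ranged from 8 to 19 without single libraries, and its split of 13 higher and 3 lower became 12 and 5 with median-ratio scaling. The combination count against panobinostat, 6 (10.5% of all genes), became 10 with quantile normalization (21.5%) and 2 with only the groups compared (3.08%). It ranged from 1 to 11 without a CBL0137, combination or vehicle library. The CBL0137 count against panobinostat, 3 (18.9% of all genes), became 0 with only the groups compared, where 0% of all genes were called. It also ranged from 1 to 11 without a CBL0137, combination or vehicle library. Shares of all genes called moved as well. For panobinostat against vehicle they were 45.3% with median-ratio scaling and 42.4% without it. For CBL0137 against panobinostat they were 3.48% without CBL0137 replicate 1 and 25.9% without CBL0137 replicate 3. For the combination against panobinostat they were 3.14% without combination replicate 2 and 21.7% without combination replicate 3. Fits without a panobinostat library leave that group a single tumour. The causes were not tested. One called change reversed, Sesn2 after panobinostat, at -0.0278 under quantile normalization (adjusted p = 0.933). That normalization moved the median of all genes after the combination to -0.26, against 0.08, and kept 62 of the 78 calls of the 32 genes.

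The labels state no pairing of tumours by replicate number. Residual correlations cannot settle this, since residuals within groups of 2 or 3 libraries are bound to each other. Same-numbered libraries of different groups had residual correlations of -0.26 to 0.19 (2 of 15 over 0.1). Those with other numbers had -0.25 to 0.30 (10 of 30 over 0.1), and 1 of 11 libraries correlated best with its own number. With the replicate block, the CBL0137 count against vehicle was 1 (3.36% of all genes) and the combination count against panobinostat was 3 (2.23%). The block kept 67 of the 78 calls. Outside the 32, the block also ended the Pmaip1 call after CBL0137 (adjusted p = 0.0529).

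Of the other lists, the DREAM genes called after panobinostat numbered 4 with quantile normalization and 14 with only the groups compared, against 9. The shares of all genes called were 41.4%, 44.4% and 42.4%. TPM carry no depth, so the precision of low values such as Perp, Ddb2 and Epha2 cannot be given, and each group holds 2 or 3 tumours.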

Other observations

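The 32 genes, chosen with earlier results of these data known, were also compared by the order of their 4 group means, as a description of these libraries. The combination had the highest mean for 22 of the 32 genes (68.8%), against 40.3% of all tested genes, and the lowest mean for 5 (15.6%), against 35.8% of all tested genes. Those 5 were Trp53, Mdm4, Ppm1d, Zmat3 and Bloc1s2. Every combination library exceeded every other library for 13 of the 32 genes (40.6%, against 19.4% of all tested genes), namely Mdm2, Trp53inp1, Polk, Fas, Tnfrsf10b, Eda2r, Apaf1, Phlda3, Sesn2, Gdf15, Pltp, Cd82 and Epha2. Every combination library lay below every other for Trp53 and Ppm1d (6.25%, against 16.3% of all tested genes).

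Within the CBL0137 group, replicate 3 had the highest value of the 3 tumours for 21 of the 32 genes (65.6%), against 48% of all tested genes. Its macrophage marker sum was 4102 TPM, against 2233 TPM in replicate 1 and 2031 TPM in replicate 2, and its B cell marker sum was 160 TPM. Cdkn1a had 47.5 TPM in that tumour and 15.8 and 15.9 TPM in the other 2. The part of these markers in the values was not tested.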
